A study of Rattus norvegicus with 12 samples.

Results

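The genes described here move calcium in skeletal muscle fibres. They are 10 in number, chosen by symbol: Ryr1, Cacna1s and Jph1 of the release machinery, the pumps Atp2a1 and Atp2a2 with their small regulators Sln and Pln, and the calcium binding proteins Casq1, Casq2 and Pvalb. All 10 had a single row among the 24648 rows of the raw count table, and all 10 were among the 14225 genes that passed the filter on low counts. RNA-seq was made from skeletal muscle of male rats aged 540 days. Restriction libraries came from offspring of dams fed a diet with 6% protein during gestation and lactation, and control libraries from offspring of dams labelled control. The labels give 6 restriction and 6 control libraries, and their title numbers fall into 2 sets: 32, 33 and 35 (restriction) and 23, 28 and 29 (control) in set 2, and 12, 13 and 15 (restriction) and 3, 8 and 9 (control) in set 1. The study took soleus and extensor digitorum longus muscle, but no label ties either muscle to a library, and each set goes by its number here. The sources used here give no strain, litter or dam, and nothing says that libraries of a group came from different animals or litters. Each number of set 2 is 20 above one of set 1 with the same diet. No label says whether such libraries share an animal. The p-values therefore measure the spread between these libraries, and those that use both sets treat all libraries as independent.

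When a motor nerve fires, the voltage sensor in the fibre's surface membrane pulls open the release channel of the sarcoplasmic reticulum, calcium floods the cytosol and the filaments contract. Relaxation follows when calcium pumps return it to the reticulum, where calsequestrin holds it until the next release. Fast fibres are known for the pump Atp2a1, the calsequestrin Casq1 and the cytosolic buffer Pvalb, and slow fibres, which share much of this machinery with heart, for Atp2a2 and Casq2.

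Total counts ran from 22869995 to 31342247 in set 2 and from 22829692 to 38313704 in set 1. The slow myosin heavy chain Myh7 averaged 1794 and 1751 CPM in set 2 restriction and control libraries and 32298 and 35514 CPM in those of set 1, and the fast type IIB chain Myh4 averaged 33148 and 15375 CPM in set 2 and 12.7 and 140.0 CPM in set 1. CPM is the count of a gene over the TMM-scaled total of its library, in the usual CPM unit. All 9 genes of a fast-fibre list were higher and all 7 of a slow-fibre list lower in set 2, each with an adjusted p under 0.05, so set 2 carried fast and set 1 slow fibre transcripts. Control 23 of set 2 stood apart on the second principal component, at 88.0 against -23.7 to 19.6 in the other libraries. Control 3 of set 1 held 396 CPM of Myh4, against 4.97 to 19.5 CPM in the other 5 libraries of that set. Restriction 32 of set 2 held the lowest Myh7, at 702 CPM, and the highest Myh4, at 47519 CPM. These are bulk samples, in which fewer fibres of a type and less RNA per fibre cannot be told apart.

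The first comparison set the fast against the slow set, averaged over both diets. The 10 calcium genes split by fibre type: Ryr1, Cacna1s, Jph1, Atp2a1, Casq1 and Pvalb were higher in set 2, and Atp2a2, Sln, Pln and Casq2 lower. Among the 10, the differences were smaller for the release machinery, 1.63-fold to 3.05-fold, for Casq1, 2.44-fold higher, and for Pln, 1.76-fold lower. They were larger for the pumps, for Sln, for Casq2 and for Pvalb, 16.1-fold to 181-fold. In edgeR's quasi-likelihood test all 10 had an adjusted p under 0.05, as did 39.5% of all genes tested, 19.9% higher and 19.6% lower. Within restriction libraries alone 6 were called higher and 3 lower, all but Pln (30% of all genes called, 15% in each direction), and within controls alone 6 higher and 4 lower (20.8% of all genes, 10.4% in each direction). The 10 genes took 3.81% to 4.38% of all counts in set 2 libraries and 1.25% to 1.56% in set 1 libraries. Most of the set 2 share was Atp2a1, at 28148 to 37433 CPM, where the 10 genes summed to 37437 to 51198 CPM.

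**Figure D1:**
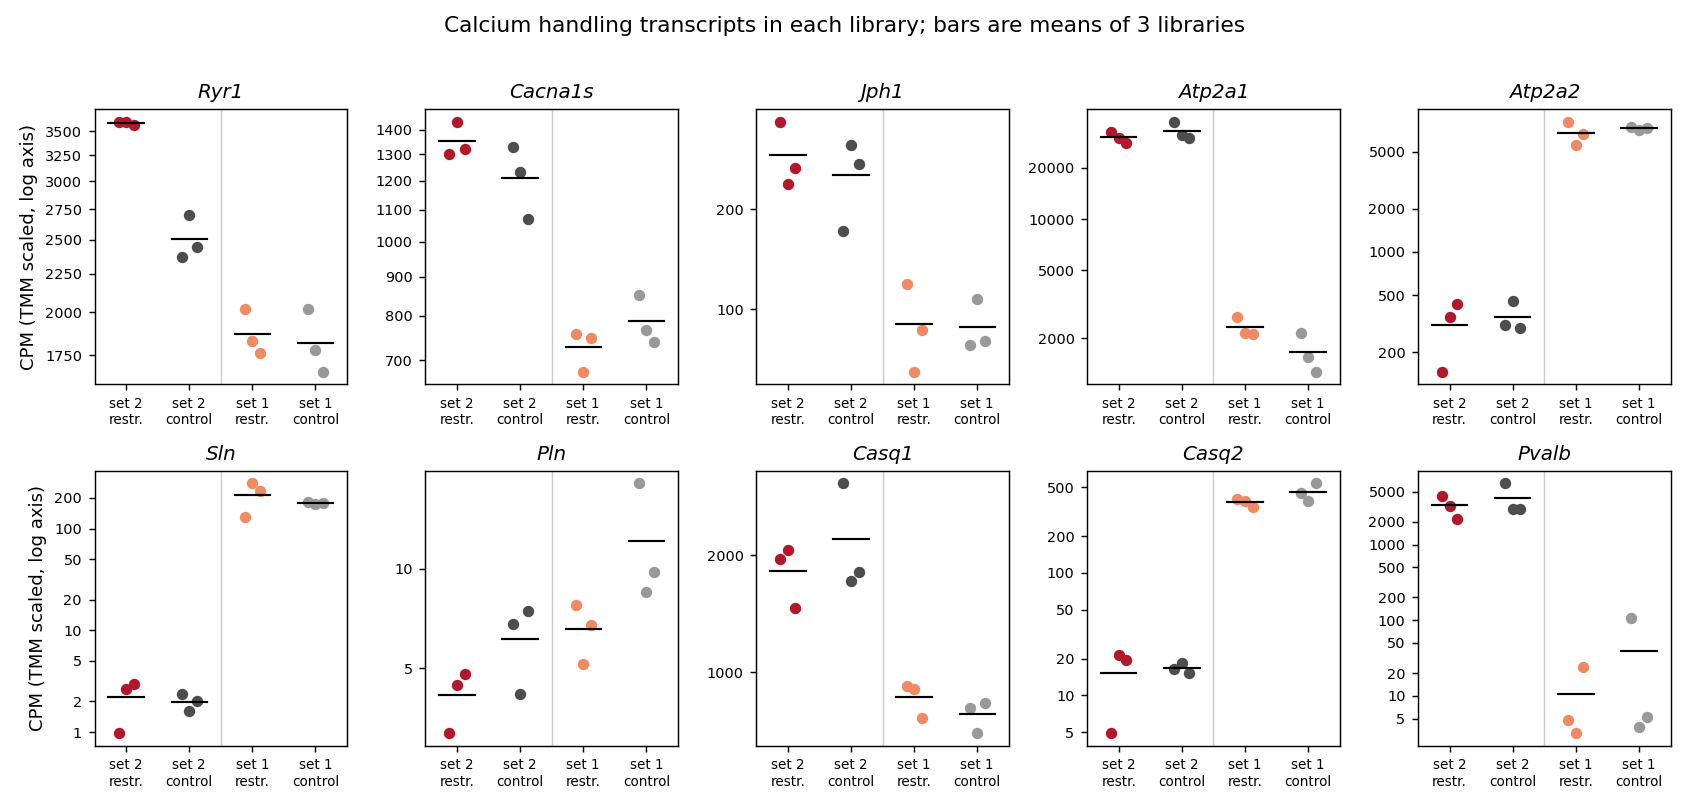
CPM after TMM scaling (log axis) of the 10 calcium genes in each of the 12 libraries, by set and diet, with bars at the mean of 3 libraries. The sets do not overlap for 9 genes and overlap for Pln, and within a set the diets are apart for Ryr1 in set 2 and Pln in set 1.

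Ryr1 encodes the release channel of the sarcoplasmic reticulum. It measured 3605, 3599 and 3565 CPM in set 2 restriction libraries and 2369.95, 2701 and 2443 CPM in set 2 controls, against 2019, 1831 and 1761 CPM in set 1 restriction libraries and 2016, 1779 and 1663 CPM in set 1 controls. Every set 2 library was above every set 1 library, and the restriction libraries of set 2 were the highest group, with a coefficient of variation of 0.609%. The log2 fold change between the sets was 0.70 ± 0.10 (SE; edgeR adjusted p = 1.0e-04). It was 0.94 ± 0.15 within restriction libraries and 0.46 ± 0.14 within controls, and the second value was no longer past the threshold when control 8, control 9, control 28, control 29, restriction 33 or restriction 35 was left out (adjusted p = 0.053 to 0.13).

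Cacna1s, the voltage sensor that couples to Ryr1, measured 1352 ± 72.4 and 1209.9 ± 131 CPM in set 2 restriction and control libraries and 727 ± 44.5 and 786 ± 58.9 CPM in those of set 1 (SD, n = 3). The difference between the sets was 0.76 ± 0.10 in log2 units (SE; edgeR adjusted p = 4.6e-05). Jph1, junctophilin 1, ties the surface membrane to the reticulum at these junctions. It measured 368, 239.6 and 267 CPM in set 2 restriction libraries and 172, 314 and 275 CPM in set 2 controls, against 119, 64.7 and 86.7 CPM in set 1 restriction libraries and 77.7, 107 and 80.2 CPM in set 1 controls. The sets did not overlap, control 23 was the lowest library of set 2, and the log2 difference was 1.61 ± 0.19 (SE; edgeR adjusted p = 1.4e-05). Within each set the groups of both genes overlapped between the diets.

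Atp2a1 and Atp2a2 encode the fast (SERCA1) and the slow and cardiac (SERCA2) calcium pump of the reticulum. Atp2a1 measured 32669.5, 29800.1 and 28148 CPM in set 2 restriction libraries and 37433, 31046 and 30195 CPM in set 2 controls, against 2663, 2147 and 2129.5 CPM in set 1 restriction libraries and 2153, 1552 and 1273 CPM in set 1 controls. Atp2a2 ran the other way, with 146, 354 and 434 CPM in set 2 restriction libraries and 311, 454 and 292 CPM in set 2 controls, against 8131, 5607 and 6637 CPM in set 1 restriction libraries and 7491.5, 7110.3 and 7304 CPM in set 1 controls. Neither pump overlapped between the sets. The log2 fold changes were 4.01 ± 0.16 for Atp2a1 and -4.41 ± 0.25 for Atp2a2 (SE; edgeR adjusted p = 7.1e-10 and 1.5e-08), 16.1-fold higher and 21.3-fold lower. Restriction 32, the library with the lowest Myh7, was also the lowest in Atp2a2, Sln, Pln and Casq2.

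The promoter windows of the pump pair and of the calsequestrin pair are shown because the genes of each pair are paralogs that moved in opposite directions between the sets. Each is the 250 bases before the start of the gene in RefSeq's rat assembly GRCr8, read 5' to 3' on the strand of the gene, with capitals at each match to the E-box CANNTG, the motif bound by myogenic factors. The windows lie at chr1:190475411-190475660 (minus strand) for Atp2a1, chr12:39733269-39733518 (plus strand) for Atp2a2, chr13:87212711-87212960 (minus strand) for Casq1 and chr2:192214306-192214555 (plus strand) for Casq2.
Atp2a1: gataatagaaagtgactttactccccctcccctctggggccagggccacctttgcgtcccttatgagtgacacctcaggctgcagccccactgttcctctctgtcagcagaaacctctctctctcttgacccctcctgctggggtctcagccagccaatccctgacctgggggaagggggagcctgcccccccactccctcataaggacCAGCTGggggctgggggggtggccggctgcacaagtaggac
Atp2a2: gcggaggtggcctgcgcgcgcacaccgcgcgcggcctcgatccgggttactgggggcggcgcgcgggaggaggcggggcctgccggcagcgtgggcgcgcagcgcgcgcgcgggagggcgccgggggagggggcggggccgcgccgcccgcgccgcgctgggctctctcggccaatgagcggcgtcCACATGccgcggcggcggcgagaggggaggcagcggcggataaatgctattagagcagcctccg
Casq1: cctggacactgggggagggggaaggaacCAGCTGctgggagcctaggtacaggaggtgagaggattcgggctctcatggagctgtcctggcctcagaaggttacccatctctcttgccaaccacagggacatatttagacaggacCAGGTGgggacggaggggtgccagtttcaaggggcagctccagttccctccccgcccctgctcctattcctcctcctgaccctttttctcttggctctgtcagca
Casq2: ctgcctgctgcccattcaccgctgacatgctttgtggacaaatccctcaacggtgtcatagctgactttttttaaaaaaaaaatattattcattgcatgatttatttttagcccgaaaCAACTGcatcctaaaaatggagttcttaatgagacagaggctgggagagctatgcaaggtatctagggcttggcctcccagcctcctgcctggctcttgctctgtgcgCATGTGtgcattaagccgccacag
RefSeq gave such a window for 8 of the 10 genes, all but Sln and Jph1. The E-box, which reads the same way on both strands up to its free bases, was found in 8 of these 8 windows and in 65.5% of 33469 rat promoter windows of the same length. The Atp2a1 window held the form CAGCTG, the Casq1 window CAGCTG and CAGGTG, the Atp2a2 window CACATG, and the Casq2 window CAACTG and CATGTG. Shares of the single forms over all windows were not counted. The NFAT core GGAAA was found on either strand in 0 of the 8 windows and in 56.9% of all. The Atp2a2 window was 80.0% G and C, against a median of 51.2% over all windows, and the Casq2 window 46.4%. A match describes letters and is not a measured binding site.

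Sarcolipin (Sln) and phospholamban (Pln) are small membrane proteins that bind the pumps and slow calcium uptake. Sln measured 0.973, 2.64 and 2.95 CPM in set 2 restriction libraries and 2.36, 1.60 and 2.001 CPM in set 2 controls, against 131, 279 and 234 CPM in set 1 restriction libraries and 183, 174 and 179 CPM in set 1 controls. It was 94.0-fold lower in set 2, at -6.55 ± 0.28 in log2 units (SE; edgeR adjusted p = 1.1e-09), and its groups overlapped between the diets in each set. Sln is known to rise on denervation, and the summed level of a list of 9 denervation genes was 114 to 160 CPM in set 2 restriction libraries and 124 to 192 CPM in set 2 controls, against 577 to 861 CPM in set 1 restriction libraries and 683 to 902 CPM in set 1 controls. The part of this list in the Sln difference was not tested.

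Pln was a low gene in both sets, with 95 to 538 counts per library. It measured 3.19, 4.46 and 4.80 CPM in set 2 restriction libraries and 6.81, 4.19 and 7.44 CPM in set 2 controls, against 7.78, 5.14 and 6.76 CPM in set 1 restriction libraries and 18.1, 8.49 and 9.79 CPM in set 1 controls. Pln was the single gene of the 10 whose sets overlapped, and its difference was the smallest among the 4 lower genes, at -0.82 ± 0.23 (SE; edgeR adjusted p = 0.010). It was -0.98 ± 0.32 within controls (edgeR adjusted p = 0.042) and -0.66 ± 0.32 within restriction libraries (edgeR adjusted p = 0.14). Within controls the threshold was missed without control 3 (-0.57, edgeR adjusted p = 0.24) and without any of the other libraries except 8, 23 and 32 (adjusted p = 0.051 to 0.16). Pln is also a gene of smooth and cardiac muscle. The summed level of 7 smooth muscle and pericyte genes was 267 to 299 CPM in set 2 restriction libraries and 209.7 to 323 CPM in set 2 controls, against 277 to 361 CPM and 246 to 297 CPM in the restriction and control libraries of set 1. A list of 8 cardiac genes summed to 83.5 to 132 CPM in set 2 restriction libraries and 93.7 to 127 CPM in set 2 controls, against 805 to 1267 CPM and 1467 to 1964 CPM in the restriction and control libraries of set 1. Most of that sum was Myh6, at 21.5 to 49.2 CPM in set 2 and 762 to 1937 CPM in set 1. Of the defining cardiac genes, Nkx2-5 was at 0 counts in every group, and Nppa and Myl7 in set 2 and in set 1 controls. Tnni3 measured 2.14 to 9.34 CPM in set 1 controls and was highest in control 3, the library with the highest Pln. Myh6 and the list sum were instead highest in control 9, at 1937 and 1964 CPM, against 1779 and 1835 CPM in control 3. Ryr2 of the same list was highest in control 8, at 0.517 CPM, against 0.202 CPM in control 3. The part of either list in the Pln levels was not tested.

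Casq1 and Casq2 are the fast and the slow and cardiac calsequestrin, the calcium store protein of the reticulum. Casq1 averaged 1826 ± 321 and 2199.5 ± 754 CPM in set 2 restriction and control libraries and 864 ± 87.4 and 780.3 ± 73.3 CPM in those of set 1 (SD, n = 3), a log2 difference between the sets of 1.29 ± 0.16 (SE; edgeR adjusted p = 2.1e-05). Casq2 measured 4.90, 21.6 and 19.5 CPM in set 2 restriction libraries and 16.6, 18.4 and 15.1 CPM in set 2 controls, against 403, 389 and 346 CPM in set 1 restriction libraries and 452, 388 and 541 CPM in set 1 controls. It was 26.1-fold lower in set 2, at -4.71 ± 0.29 in log2 units (SE; edgeR adjusted p = 3.6e-08). Restriction 32 was the lowest library of all in Casq2.

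Parvalbumin (Pvalb), the cytosolic buffer of the fastest fibres, differed most. It measured 4403, 3288 and 2214 CPM in set 2 restriction libraries and 6489.95, 2935 and 2987 CPM in set 2 controls, against 4.84, 3.19 and 24.01 CPM in set 1 restriction libraries and 108, 3.91 and 5.29 CPM in set 1 controls. Control 3 and restriction 15 were the high libraries of set 1, and control 3 was also the highest there in Myh4 and Pln. The log2 fold change was 7.501 ± 0.90 (SE; edgeR adjusted p = 1.9e-05), and 9.05 without control 3 or 8.22 without restriction 15. Of the 10 genes, the sets did not overlap for 6 that were higher in set 2 and for 3 that were lower. Of all 14225 genes tested, 8.97% had set 2 wholly above set 1 and 9.77% had it wholly below.

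**Figure D2:**
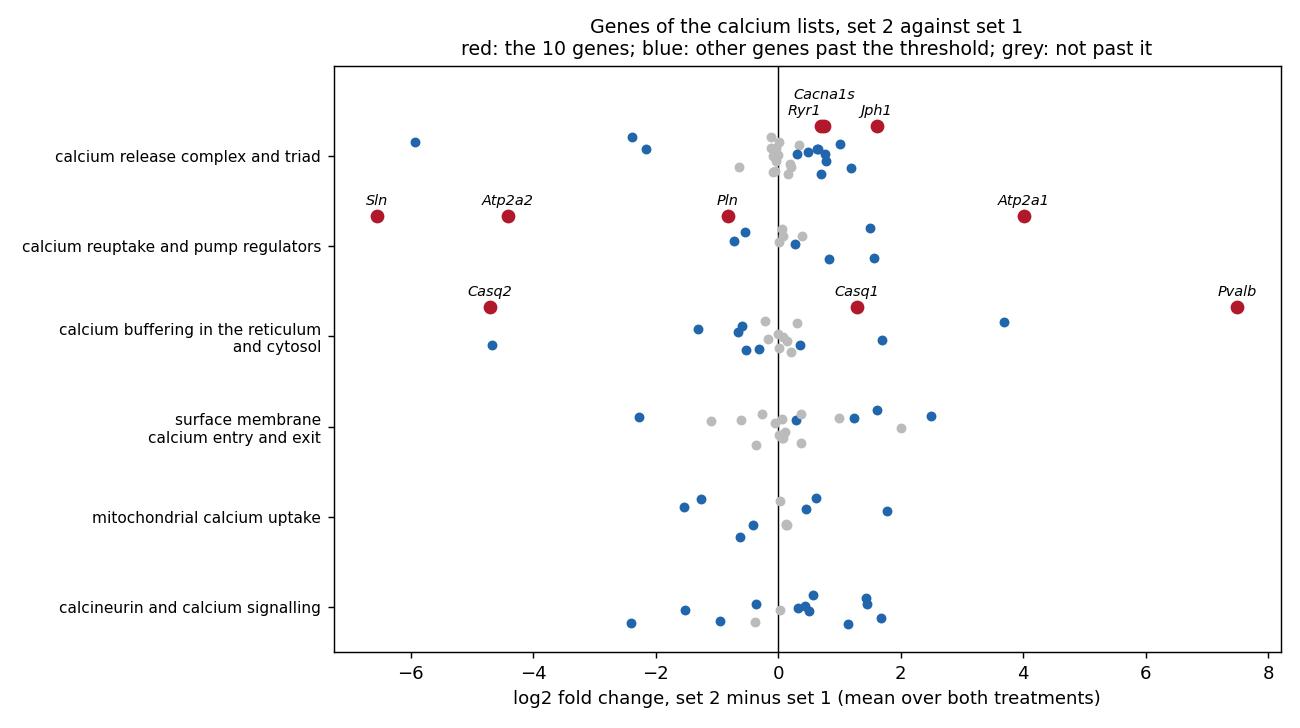
Log2 fold change, set 2 minus set 1, of each gene tested in 6 calcium lists, with the 10 genes described here named. Pvalb (7.501) and Sln (-6.55) lie at the ends, while most genes of the release list lie within 1 log2 unit of 0.

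Ratios of partner genes within a library do not depend on how libraries are scaled, and 7 were compared. They are log2 ratios of counts that are not corrected for transcript length, so their differences between groups carry the information and not their size. The ratio of Atp2a1 over Atp2a2 averaged 6.74 ± 0.94 and 6.57 ± 0.42 in set 2 restriction and control libraries and -1.54 ± 0.14 and -2.17 ± 0.36 in those of set 1 (SD, n = 3), a difference of 8.51, or 365-fold, between the sets. The ratio of Casq1 over Casq2 differed by 6.09 and that of Sln over Pln by -5.79. Sln over Atp2a2 was lower in set 2 as well, with a difference of -2.10, whereas Pln was higher relative to Atp2a2, by 3.69. Jph1 over Ryr1 was higher by 0.90 in set 2. Each of these 6 gave p = 0.005 in an exact permutation test within diets, two-sided, the smallest p that its 400 relabellings allow. After Benjamini-Hochberg adjustment over the 7 ratios this p was 0.0058. The relabellings treat same-numbered libraries of the sets as independent. Ryr1 over Cacna1s, the release channel relative to its voltage sensor, was 1.23 in set 2 and 1.29 in set 1, a difference of -0.05 (exact permutation p = 0.56).

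**Figure D3:**
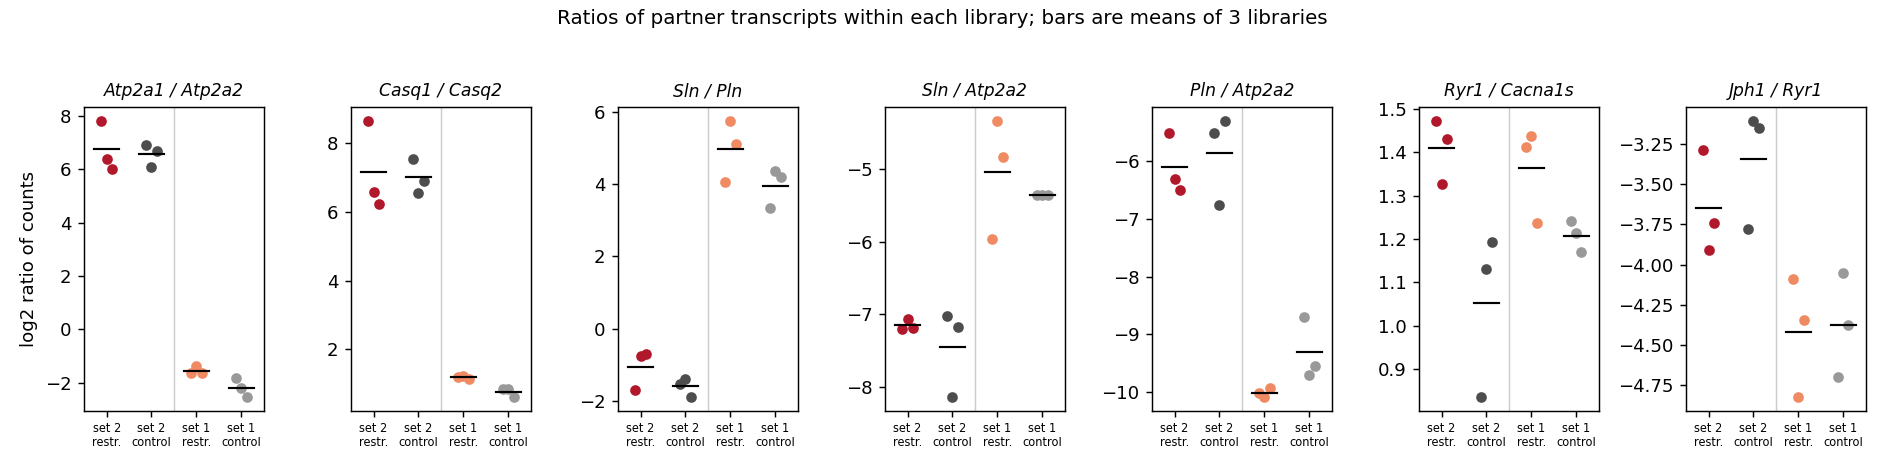
Log2 ratio of the counts of partner genes in each of the 12 libraries, by set and diet, with bars at the mean of 3 libraries. In 6 panels the sets do not overlap, and in the Ryr1 over Cacna1s panel the sets lie at 1.23 and 1.29 on average.

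The rest of the calcium system was read from 6 lists, which hold 105 genes besides the 10, of which 97 were tested. Of these 97, 31 rose and 20 fell in set 2 in edgeR's test, against 19.9% higher and 19.6% lower calls over all genes, with a median log2 fold change of 0.07, against -0.01 over all genes. The counts in each list include any of the 10 genes that it holds. They are to be read against the same background of 39.5% of all genes called. Among release and triad genes, with Ryr1, Cacna1s and Jph1 included, 12 of 29 rose and 3 fell. Jph2, the other main junctophilin of muscle (1.19 ± 0.13), and Cacna2d1, a subunit of the voltage sensor (1.01 ± 0.11), rose, while Ryr3, a minor release channel (-2.38 ± 0.30), and the scaffold Homer2 (-2.16 ± 0.19) fell. Triadin (Trdn, 0.01 ± 0.10), which anchors calsequestrin to the channel, and Stac3 (-0.09 ± 0.12), an adaptor of the voltage sensor, did not pass, and both are named after their values were seen.

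Of 14 reuptake genes, with Atp2a1, Atp2a2, Sln and Pln included, 5 rose and 5 fell. The calmodulin kinases Camk2a (1.56 ± 0.14) and Camk2g (1.501 ± 0.30) rose, and Camk2b (-0.53 ± 0.09) and Prkaca, a catalytic subunit of protein kinase A (-0.72 ± 0.15), fell. Of 20 buffering genes, with Casq1, Casq2 and Pvalb included, 5 rose and 7 fell. Outside the 10, and at a mean CPM of at least 1, the troponin C genes differed most. Fast Tnnc2 was at 3.69 ± 0.17 and slow and cardiac Tnnc1 at -4.68 ± 0.27. Calm3, a calmodulin gene, rose (1.69 ± 0.13), and S100b, a calcium binding protein, fell (-1.30 ± 0.26). S100b is also on a list of 5 Schwann cell genes, of which 2 were called higher and 1 lower, with a median of 0.31.

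Of 19 genes of entry and exit at the surface membrane 4 rose and 1 fell. They included the plasma membrane pump Atp2b3 (2.50 ± 0.19), the store sensor Stim2 (1.62 ± 0.18) and the channel Trpc1 (-2.27 ± 0.29). Of 11 mitochondrial genes 3 rose and 4 fell. Mcu, the pore of the uniporter (-1.53 ± 0.11), fell, and Micu3, a regulator of the uniporter (1.78 ± 0.26), and Letm1 (0.62 ± 0.16) rose. Of 14 calcineurin genes 8 rose and 4 fell, with the calcineurin subunits Ppp3cb (1.68 ± 0.15) and Ppp3r1 (1.45 ± 0.11) higher and the calcineurin regulators Rcan1 (-2.41 ± 0.22) and Rcan2 (-1.52 ± 0.20) lower in set 2.

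To place each of the 10 genes, the other genes with the most similar course over the 12 libraries were found by the root-mean-square difference between centred log2 CPM values, as a description. Atp2a2 lay nearest to Myh7 (0.18) and the slow troponin Tnni1 (0.23), and Casq2 to the slow troponins Tnnt1 (0.21) and Tnnc1 (0.23). Casq1 lay nearest to the myosin light chain Myl1 (0.12) and to Phospho1 (0.14), and Pvalb to Actn3 (0.55) and Mybpc2 (0.88), genes of fast sarcomeres. Atp2a1 lay nearest to Atp1b2 (0.23), a sodium pump subunit, and Tbx1 (0.29), Sln to Fhl2 (0.43) and Zfp474 (0.56), and Pln to Dact3 (0.35) and Kcne2 (0.35). Ryr1 and Cacna1s shared Dennd4b as the nearest gene (0.12 and 0.10), followed by Arhgap20 (0.13) and Ankrd40 (0.10), and Jph1 lay nearest to Dennd1b (0.16) and Fbxo31 (0.20). Among the 10 themselves the closest pairs were Ryr1 with Cacna1s (0.17) and Atp2a2 with Casq2 (0.30). The measure is dominated by the difference between the sets where that is large.

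Restriction was then set against control for the same genes. None of the 10 had an adjusted p under 0.05 by edgeR, whether averaged over both sets (0.00703% of all genes called), in set 2 (0% called), in set 1 (0.00703% called) or as a difference between the sets (0% called). At an unadjusted p under 0.05 there were 2 of the 10 for the mean over both sets (Pln and Ryr1, against 7.83% of all genes), 1 in set 2 (Ryr1, 8.59%), 2 in set 1 (Pln and Atp2a1, 7.54%) and 1 for the difference between the sets (Ryr1, 9.5%). DESeq2 called 1, Ryr1 in set 2, and limma-voom called 0. The median of the 10 was -0.02 for the mean over both sets, -0.12 in set 2 and -0.04 in set 1, against -0.01, -0.01 and -0.003 over all genes.

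**Figure D4:**
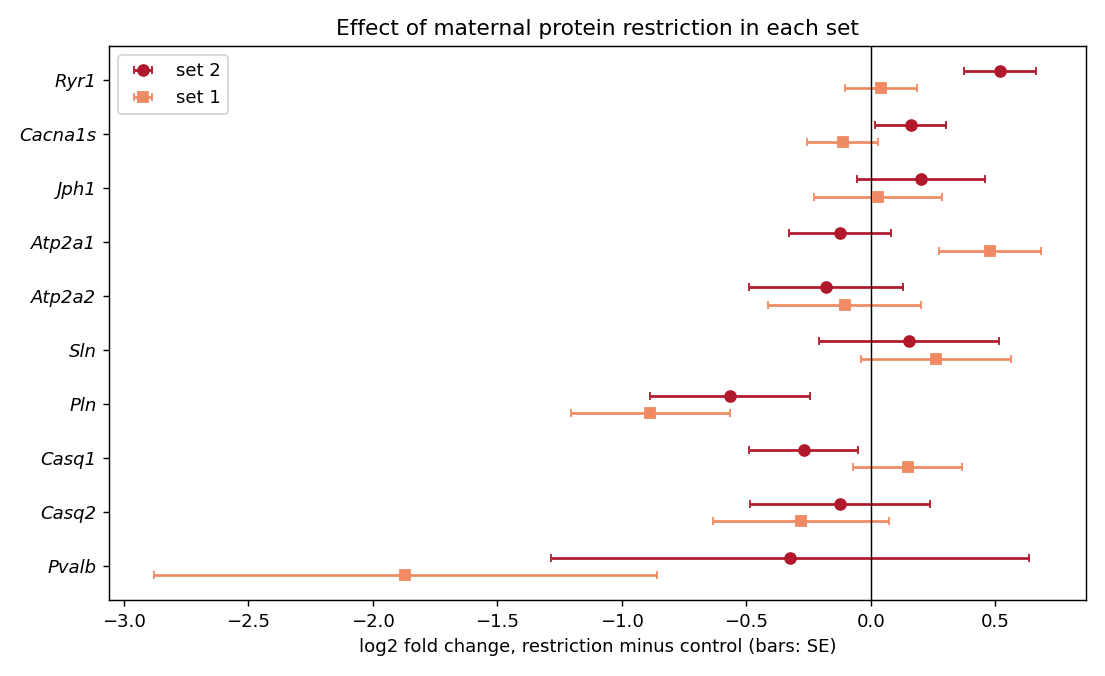
Log2 fold change, restriction minus control, of each of the 10 genes in set 2 (circles) and set 1 (squares), with bars of 1 SE. Ryr1 in set 2 (0.52) and Pln (-0.89) and Atp2a1 (0.48) in set 1 lie more than 2 SE from 0, and Pvalb has the widest bars.

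In set 2, Ryr1 averaged 3590 ± 21.9 CPM in restriction libraries and 2505 ± 174 CPM in controls (SD, n = 3). The groups did not overlap, as held for 12.7% of all genes in set 2, 7.01% in this direction. The log2 fold change was 0.52 ± 0.14 (SE; edgeR adjusted p = 0.46, DESeq2 adjusted p = 0.023), and it lay between 0.48 and 0.58 when any 1 library was left out. In the same groups 5 red blood cell genes summed to 297 to 394 CPM in restriction libraries and 601 to 1960 CPM in controls, and Myh4 measured 25650 to 47519 CPM and 11042 to 19039 CPM, both without overlap. The fast-fibre list that holds Myh4 did overlap, summing to 123564 to 142428 CPM under restriction and 115411 to 141242 CPM in controls. Of its 9 genes, 4 had a log2 fold change above 0 in set 2 and 5 below. The part of these genes in the Ryr1 difference was not tested. In set 1 the value was 0.04 ± 0.14 (edgeR adjusted p = 0.97), with 1870 ± 133 CPM in restriction libraries and 1819 ± 180.0 CPM in controls. The difference between the sets in this effect was 0.48 ± 0.20 (edgeR adjusted p = 0.50), which did not pass. Its partner Cacna1s was at 0.16 ± 0.14 in set 2 and -0.11 ± 0.14 in set 1, and Jph1 at 0.20 ± 0.26 and 0.03 ± 0.26.

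Relative to Cacna1s, Ryr1 averaged 1.41 ± 0.07 in set 2 restriction libraries and 1.05 ± 0.19 in set 2 controls on the log2 scale of the ratio, without overlap (exact permutation p = 0.1, the smallest that 3 against 3 libraries allow). Without control 23, the lowest of these ratios, the difference was 0.25, against 0.36 with it. In set 1 the ratio averaged 1.36 ± 0.11 in restriction libraries and 1.21 ± 0.04 in controls, with overlap. Over both sets the difference was 0.26 (exact permutation p = 0.01 with diets exchanged within sets, 0.07 after adjustment over the 7 ratios), which did not pass. Exchanging diets within each set treats same-numbered libraries of the sets as independent. If they share an animal, which is not known, the test counts that animal more than once.

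Pln had lower means in restriction libraries of both sets, without passing. Its log2 fold change was -0.73 ± 0.23 over both sets (SE; edgeR adjusted p = 0.49), -0.57 ± 0.32 in set 2 (adjusted p = 0.62) and -0.89 ± 0.32 in set 1 (adjusted p = 0.54). In set 1 the groups did not overlap, as held for 17.6% of all genes there, 9.6% in this direction, with 7.78 CPM in the highest restriction library against 8.49 CPM in the lowest control. Without control 3, at 18.1 CPM, the set 1 value was -0.47, and in set 2 the groups overlapped. Relative to Atp2a2, Pln averaged -10.02 ± 0.07 in set 1 restriction libraries and -9.31 ± 0.54 in set 1 controls on the log2 scale, without overlap (exact permutation p = 0.1, the smallest possible, and 0.23 adjusted). Without control 3 this difference was -0.39, against -0.70 with it. In the same libraries the cardiac list summed to 805 to 1267 CPM under restriction and 1467 to 1964 CPM in controls, without overlap and lower under restriction like Pln. Most of that sum was Myh6. Tnni3 of the same list overlapped between the diets, at 2.70 to 6.83 CPM under restriction and 2.14 to 9.34 CPM in controls. The smooth muscle list summed to 277 to 361 CPM and 246 to 297 CPM. The part of these lists in the Pln difference was not tested. Sln was at 0.15 ± 0.36 in set 2 and 0.26 ± 0.30 in set 1, where leaving out 1 library gave 0.031 (without restriction 13) to 0.52 (without restriction 12).

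In set 1, Atp2a1 averaged 2313 ± 303 CPM in restriction libraries and 1659 ± 450 CPM in controls (SD, n = 3), with restriction higher by 0.48 ± 0.20 in log2 units (SE; edgeR adjusted p = 0.61). The value was 0.72 without control 3 and 0.32 without control 9. In set 2 it was -0.12 ± 0.20 (adjusted p = 0.87), and the difference between the sets was -0.60 ± 0.29 (edgeR adjusted p = 0.53). The slow pump Atp2a2 was at -0.10 ± 0.31 in set 1 and -0.18 ± 0.31 in set 2. The ratio of Atp2a1 over Atp2a2 was higher by 0.63 in set 1 restriction libraries, which spanned -1.64 to -1.38, than in controls, which spanned -2.52 to -1.80. That of Casq1 over Casq2 was higher by 0.42, with 1.19 ± 0.04 in restriction libraries and 0.77 ± 0.13 in controls. Neither ratio overlapped between the diets of set 1, and both gave an exact permutation p = 0.1, the smallest possible (0.23 adjusted). In the same libraries the summed level of 9 fast-fibre genes was 10150.1 to 12578 CPM under restriction and 5897 to 9157 CPM in controls, and its part in these ratios was not tested. In set 2 the ratios differed by 0.17 and 0.15 between the diets, and by -0.36 and -0.59 without restriction 32.

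Casq1 was at -0.27 ± 0.22 in set 2, and at 0.05 without control 23, which held 3068 CPM against 1719.6 and 1811 CPM in the other controls, and at 0.15 ± 0.22 in set 1. Casq2 was at -0.12 ± 0.36 and -0.28 ± 0.35. Pvalb was at -0.33 ± 0.96 in set 2 and -1.87 ± 1.01 in set 1 (edgeR adjusted p = 0.94 and 0.68). The set 1 value followed control 3, at 108 CPM, and was 1.22 without it.

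Among the 97 other calcium genes 0 passed in edgeR under any of these 4 contrasts, with 10, 16, 14 and 15 at an unadjusted p under 0.05 for the mean over both sets, set 2, set 1 and the difference between the sets, against 7.83%, 8.59%, 7.54% and 9.5% of all genes. The smallest p over the mean belonged to Camk2g (1.17 ± 0.29, edgeR adjusted p = 0.38, DESeq2 adjusted p = 0.032) and to the sodium-calcium exchanger Slc8a3 (0.50 ± 0.14, edgeR adjusted p = 0.47). Camk2g, the gamma calmodulin kinase, measured 5.01 ± 1.65 and 1.82 ± 0.56 CPM in set 2 restriction and control libraries and 1.43 ± 0.23 and 0.779 ± 0.291 CPM in those of set 1 (SD, n = 3). It also had the smallest p in set 2 (1.47 ± 0.41), followed there by Ryr1. In set 1 these were Tnnc2 (0.71 ± 0.21, edgeR adjusted p = 0.53) and the scaffold Homer1 (-0.50 ± 0.16, edgeR adjusted p = 0.53), and for the difference between the sets Speg, a kinase of the triad (0.77 ± 0.20), and Tnnc2 (-1.12 ± 0.30), both at an edgeR adjusted p = 0.42.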

How the data were processed

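Raw counts per gene were deposited by the authors. The submitters' processing notes name HISAT2, featureCounts, Trimmomatic and DESeq2 and the build Rnor_6.0; no version is given in the sources used here. Total RNA came from a Trizol extraction and was prepared with a TruSeq RNA kit, per the labels' protocols. The counts are whole numbers. A second deposited table holds the same counts over a constant for each library and stayed unused. The authors' sums per library ran from 22829692 to 38313704 counts.

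From the counts, filterByExpr kept 14225 of 24648 genes. edgeR 4.0.16 in R 4.3.3 scaled by TMM, fitted 1 mean per set and diet over all 12 libraries and gave quasi-likelihood tests with Benjamini-Hochberg adjustment over all genes tested. The SE of an edgeR value is the absolute log2 fold change divided by the square root of the test's F statistic, not a separate estimate. Ratios had 0.5 added to each count. On simulated counts the fit recovered 73% of genes changed 2-fold and 92% changed 4-fold between the sets (13932 genes), and 72% and 95% for the mean diet effect (13918 genes). In set 2 it recovered 41% and 86% (13955 genes) and in set 1 42% and 89% (13948 genes). Only genes with mean CPM of at least 1 were changed, 100 at each fold, and no other gene differed between groups. The real sets differ in many genes, so these rates may not hold for them or for lower genes. Every replicate pair differed beyond sampling noise (chi-square over degrees of freedom 24.7 to 144). Reads shared by paralogs such as the pumps may be split between them. Reads of antisense partners cannot be told apart, since the kit does not mark strand.

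The 10 genes and the lists were chosen with earlier results of these data known. Genes outside the 10 were named by a rule: up to 2 called genes per list and direction with mean CPM of at least 1, the 2 smallest p per diet contrast, the 2 nearest genes per member, and Myh7 and Myh4. Trdn, Stac3 and the single genes of the marker lists (Myh6, Tnni3, Ryr2, Nkx2-5, Nppa, Myl7) fall outside this rule and were chosen after their values were seen. A result for 1 gene that the rule names is not reported here. Alternatives were DESeq2 1.42.0, limma-voom (limma 3.58.1), other scalings and filters, 1 set alone, a replicate block and leaving out each library. RefSeq symbols of GRCr8 matched 10 of the 10 genes, and RefSeq promoter sequences were used for 8.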

Additional observations from a re-analysis of the deposited data

How the results depend on the processing

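Between the sets, the calls of the 10 genes held in 200 of 200 values over 20 other settings, and likewise within restriction libraries. Within controls 19 of 200 values lost the call, all of Pln or Ryr1. Scaling by library size alone moved the median of all genes by -0.11, with 2102 higher and 3384 lower calls.

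Diet values near 0 changed sign. With library size alone Casq1 was 0.011 over both sets and the difference between the sets for Atp2a2 was 0.027. For Casq2 that difference was -0.11 with limma-voom, -0.059 with the replicate block and -0.11 with limma-voom and a random block. All genes called numbered 11 over both sets, 3 in set 2, 6 in set 1 and 1 for the difference with no filter, and 55, 40, 38 and 30 with DESeq2, which called 1 of the 10 in set 2. limma-voom, with or without the random block, called 0 over both sets and 3 in set 1, and fitting set 1 alone called 5.

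Leaving out 1 library gave these ranges. Over both sets they were 0 to 8 genes called, -0.30 to 0.028 for Atp2a2, -0.13 to 0.10 for Casq1, -0.37 to 0.010 for Casq2, -1.80 to 0.45 for Pvalb, -0.016 to 0.064 for Cacna1s and -0.010 to 0.21 for Jph1. In set 2 they were 0 to 4 genes called, -0.49 to 0.16 for Atp2a2, -0.12 to 0.50 for Sln, -0.41 to 0.051 for Casq1, -0.45 to 0.30 for Casq2, -0.59 to 0.16 for Pvalb and -0.011 to 0.39 for Jph1. In set 1 they were 1 to 22 genes called, the highest without control 23, -0.25 to 0.020 for Atp2a2, -3.28 to 1.22 for Pvalb, -0.020 to 0.13 for Ryr1 and -0.22 to 0.22 for Jph1. For the difference between the sets they were 0 to 1 genes called, -0.38 to 0.26 for Atp2a2, -0.38 to 0.24 for Sln, -0.081 to 0.52 for Pln, -0.17 to 0.57 for Casq2, -1.53 to 2.95 for Pvalb and -0.040 to 0.42 for Jph1.

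Among ratios, Ryr1 over Cacna1s ranged from 0.20 to 0.29 for the diets over both sets, with an adjusted exact permutation p = 0.035 without restriction 15, and from -0.088 to 0.0007 between the sets. Casq1 over Casq2 ranged from -0.088 to 0.51 over both sets. In set 2 the ranges were -0.36 to 0.53 for Atp2a1 over Atp2a2, -0.59 to 0.61 for Casq1 over Casq2, -0.049 to 0.51 for Sln over Atp2a2 and -0.70 to 0.027 for Pln over Atp2a2. In set 1 they were -0.041 to 0.77 for Sln over Atp2a2 and -0.21 to 0.16 for Jph1 over Ryr1. The cause of these changes was not tested.

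Same-numbered libraries of the sets (3 with 23, 8 with 28, 9 with 29, 12 with 32, 13 with 33 and 15 with 35) had correlated deviations of 0.0791 to 0.175 over genes. The main tests used no pairing, because not every pair passed a cut of 0.1. That cut does not settle whether a pair shares an animal. As a hint from the data, 12 of 12 libraries correlated best with their own number, among libraries of their diet in the other set. If pairs share an animal, p-values that use both sets treat libraries of the same animal as independent. With the replicate block, Ryr1 within controls had an edgeR adjusted p = 0.075. With 3 libraries a group, changes under 2-fold within a set were often not detectable, and Sln in set 2 rested on 29 to 94 counts.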
